A study of Mus musculus with 15 samples.

Results

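The 9 genes described here move iron into, within and out of cells, break down heme, or bind zinc and copper: Hmox1, Tfrc, Fth1, Ftl1, Slc40a1, Slc11a2, Ireb2, Mt1 and Mt2. They were chosen by name, because iron loading has been tied to the damage that doxorubicin does to the heart, and every probe whose platform symbol is 1 of the 9 was taken. That gave 16 of the 45281 probes on the arrays, and 14 of the 16, with at least 1 for each of the 9 genes, were bright enough to be tested. RNA came from the myocardium (heart muscle) of C57Bl/6J mice, all male and 10 weeks old, with 5 arrays in each of 3 groups. The VEGF-B+DOX hearts came from mice that received AAV9-VEGF-B, in which a serotype of adeno-associated virus carries the growth factor VEGF-B, and 7 days later doxorubicin, an anthracycline used against cancer. The DOX hearts came from mice given doxorubicin alone, and the PBS hearts from mice injected with phosphate-buffered saline. Every heart was collected 20 hours after its last injection. No group received the vector without the drug, so VEGF-B+DOX against PBS holds both agents, whose shares cannot be told apart. None of the 3 groups received a vector without VEGF-B, so in VEGF-B+DOX against DOX the growth factor and the virus cannot be told apart. The promoter that drives the vector is not given in the sources used here.

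Cells take up iron bound to transferrin through the transferrin receptor (Tfrc), and the transporter DMT1 (Slc11a2) moves it out of endosomes into the cytosol. Iron that is not used is stored in ferritin, a shell of heavy (Fth1) and light (Ftl1) chains, or leaves the cell through ferroportin (Slc40a1). Iron regulatory proteins, of which Ireb2 encodes IRP2, bind hairpins in these messengers when iron is scarce: they stabilise the Tfrc messenger and hold back translation of ferritin, so Tfrc RNA is a common readout of the iron that a cell senses, while much of the control of ferritin is not seen in RNA. Heme oxygenase 1 (Hmox1) opens the heme ring and frees its iron, and is induced by heme and by oxidative stress. The metallothioneins Mt1 and Mt2 are small cysteine-rich proteins that bind zinc and copper and are induced by metals, by glucocorticoids and by oxidative stress.

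All values are deposited log2 intensities, quantile-normalized between arrays, with a median of 6.92 on every array and a highest single value of 14.93. Dim probes pile up at 6.80, far above 0, as happens when background is not subtracted; where that holds, folds of dim probes understate the change. A probe was tested when it lay above 6.91, the upper limit of that pile, on at least 5 of 15 arrays, which left 24861 probes. Folds are log2 differences of group means ± the standard error of 1 limma model over the 15 arrays, called at a Benjamini-Hochberg adjusted p under 0.05. The number of arrays limits the precision: the median standard error was 0.07 over all tested probes and ran from 0.05 to 0.45 over the members. The design text counts 5 mice per group; should any arrays share an animal, the p-values would cover the spread between samples alone.

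Cardiomyocyte markers were bright, with Tnnc1, a troponin, averaging 14.72 and Actn2, a Z-disc actinin, 14.64 over the 15 arrays. The single probe of Vegfb, the gene named in the vector, averaged 12.76 ± 0.07 in VEGF-B+DOX, 12.98 ± 0.09 in DOX and 12.95 ± 0.07 in PBS hearts (SD, n = 5 each). It read lower in hearts that had received the vector, at 12.66 to 12.82, against 12.90 to 13.12 in DOX and 12.88 to 13.06 in PBS hearts. Whether this probe reads the messenger made from the vector was not tested, so its values do not show whether the vector was expressed. Some arrays stood apart on principal components of all tested probes. On the first component, with 28.7% of the variance, the VEGF-B+DOX arrays lay at -24.5 to -10.3, VEGF-B+DOX 3 lowest of all, the DOX arrays at 2.4 to 14.3 and the PBS arrays at 5.8 to 15.6. On the third component, with 15.4%, VEGF-B+DOX 3 lay highest and DOX 2 lay at 12.3, while the other 8 arrays of drug-treated hearts lay between -20.1 and -1.7, against 7.2 to 11.3 for the PBS arrays. VEGF-B+DOX 5, DOX 5, PBS 4 and PBS 5 lay at -19.4 to -15.0 on the second component, against -2.3 to 14.5 for the other 11 arrays. Nothing in the labels names either set. PBS 4, DOX 5, VEGF-B+DOX 5 and PBS 5 are, in that order, the last samples that the series lists. What that order stands for is not given. In bulk tissue, fewer cells of a type and less RNA per cell cannot be told apart.

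None of the 14 tested probes of the 9 genes passed the adjusted threshold in any of the 3 comparisons, which share their arrays. In DOX against PBS the count was 0 of 14, where 0.322% of all tested probes passed (80 of 24861), and limma's unadjusted p was under 0.05 for 3 of the 14, both Tfrc probes and Mt1, against 10.3% of all tested probes. The count was 0 of 14 in VEGF-B+DOX against DOX too, against 9.59% of all tested probes, and 0 of 14 at the unadjusted level against 21.8%. It was also 0 of 14 in VEGF-B+DOX against PBS, against 11.4%, with 1 of 14, Hmox1, under 0.05 unadjusted against 24.0%. Groups that did not overlap were found for 0 of 14 member probes in DOX against PBS, 0 of 14 in VEGF-B+DOX against DOX and 1 of 14, Hmox1, in VEGF-B+DOX against PBS, beside 1.93%, 7.75% and 9.70% of all tested probes. The lowest adjusted p among the members was 0.289, 0.366 and 0.126 in these comparisons in that order. The median member fold was 0.03, -0.01 and 0.01, beside 0.000, -0.016 and -0.012 over all tested probes. Some members varied widely within groups: the Tfrc probes had the seventh and eighth largest residual SD of all 24861 tested probes.

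**Figure D1:**
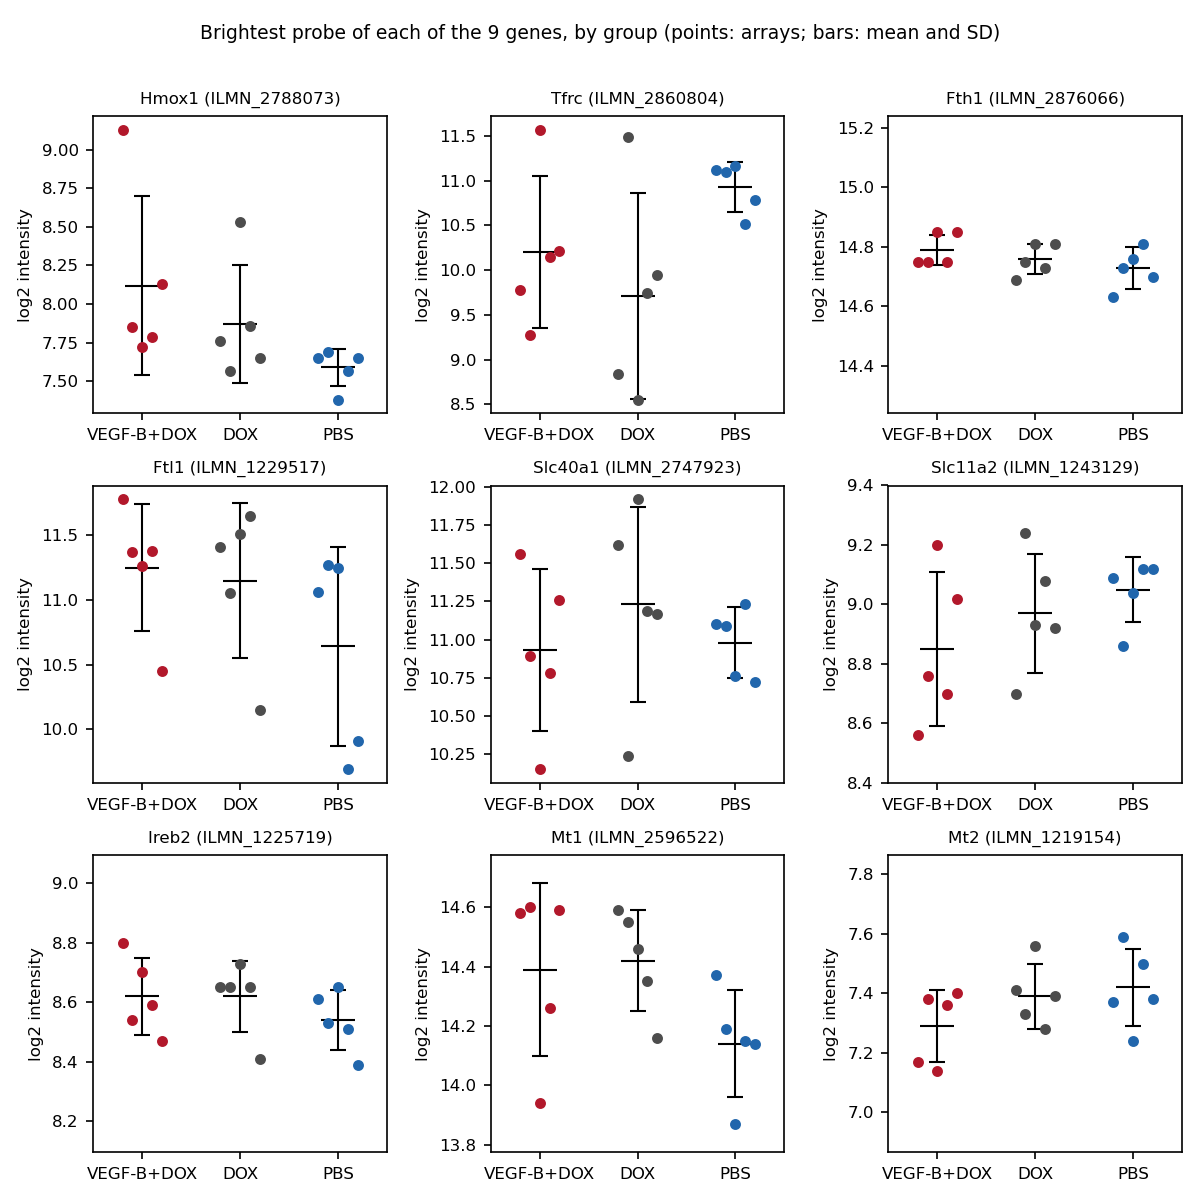
The brightest probe of each of the 9 genes, with log2 intensity on the vertical axis (each panel has its own range) and 1 point per array for VEGF-B+DOX, DOX and PBS hearts; the bars are the group mean and SD of 5 arrays. Hmox1 was higher on all 5 VEGF-B+DOX arrays than on any PBS array, Tfrc had 1 high array in each drug-treated group, and Ftl1 had low arrays in all 3 groups.

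Tfrc, the receptor that brings transferrin-bound iron into the cell, had the largest fold of the 9 genes in DOX against PBS, and its direction was carried by 4 of 5 arrays. The brighter probe, ILMN_2860804, read 9.78, 9.28, 11.57, 10.15 and 10.21 in VEGF-B+DOX hearts 1 to 5. It read 8.84, 11.49, 8.55, 9.74 and 9.95 in DOX hearts 1 to 5. It read 11.12, 11.10, 11.16, 10.51 and 10.78 in PBS hearts 1 to 5. In each drug-treated group 4 arrays lay below every PBS array and 1 lay above every PBS array: VEGF-B+DOX 3 and DOX 2, the pair that lay highest on the third principal component. The difference was -1.22 ± 0.44 in DOX against PBS, 2.33 times lower, with a 95% interval of -2.13 to -0.31 (limma, unadjusted p = 0.0116, adjusted p = 0.289). VEGF-B+DOX and PBS differed by -0.74 ± 0.44 (limma, adjusted p = 0.336), and VEGF-B+DOX and DOX differed by 0.48 ± 0.44, with an interval of -0.43 to 1.40 (adjusted p = 0.582). That last interval includes 0 and reaches values larger in size than the difference between DOX and PBS.

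The second Tfrc probe, ILMN_2619848, gave the same picture, reading 0.07 to 0.27 lower than the first on each of the 15 arrays. It gave -1.21 ± 0.45 in DOX against PBS (limma, adjusted p = 0.305), -0.73 ± 0.45 in VEGF-B+DOX against PBS (adjusted p = 0.354) and 0.48 ± 0.45 in VEGF-B+DOX against DOX (adjusted p = 0.598). The residual SD of the Tfrc probes was 0.84 and 0.87 log2 units, where the median tested probe had 0.11. Both probes ranked the 15 arrays in nearly the same way.

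Without DOX 2, both Tfrc probes passed in DOX against PBS, at -1.66 ± 0.35 (limma, adjusted p = 0.0195) and -1.66 ± 0.36 (adjusted p = 0.0237). Without DOX 2 and VEGF-B+DOX 3 together, the brighter Tfrc probe gave -1.66 ± 0.25 in DOX against PBS (limma, adjusted p = 0.00169) and -1.08 ± 0.25 in VEGF-B+DOX against PBS (adjusted p = 0.00985), while VEGF-B+DOX against DOX stayed short of the threshold at 0.59 (adjusted p = 0.225). The difference between VEGF-B+DOX and DOX depended on which of the pair was left out: it was 0.14 without VEGF-B+DOX 3 (limma, adjusted p = 0.901) and 0.93 without DOX 2 (limma, unadjusted p = 0.0166, adjusted p = 0.109). Those arrays were singled out by their values, Tfrc among them, so these are descriptions of the other arrays and not independent tests. VEGF-B+DOX 3 lay with its own group in endothelial and dividing-cell markers. Its mean relative to PBS was 0.63 for 11 endothelial and 1.83 for 8 dividing-cell markers, against at most 0.09 and 0.05 on the PBS arrays. It lay apart from its group in glucocorticoid-induced genes, at -0.06 against 0.32 to 0.50 on the other VEGF-B+DOX arrays. The same held for erythroid markers, at 0.30 against -0.92 to -0.54. In the mean of 7 neutrophil markers both arrays of the pair lay above the PBS arrays, which ran from -0.03 to 0.03. DOX 2 stood at 0.30, the lowest of the DOX arrays (0.30 to 0.62). VEGF-B+DOX 3 stood at 0.22, within its group (0.17 to 0.52). What set the pair apart was not tested.

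**Figure D2:**
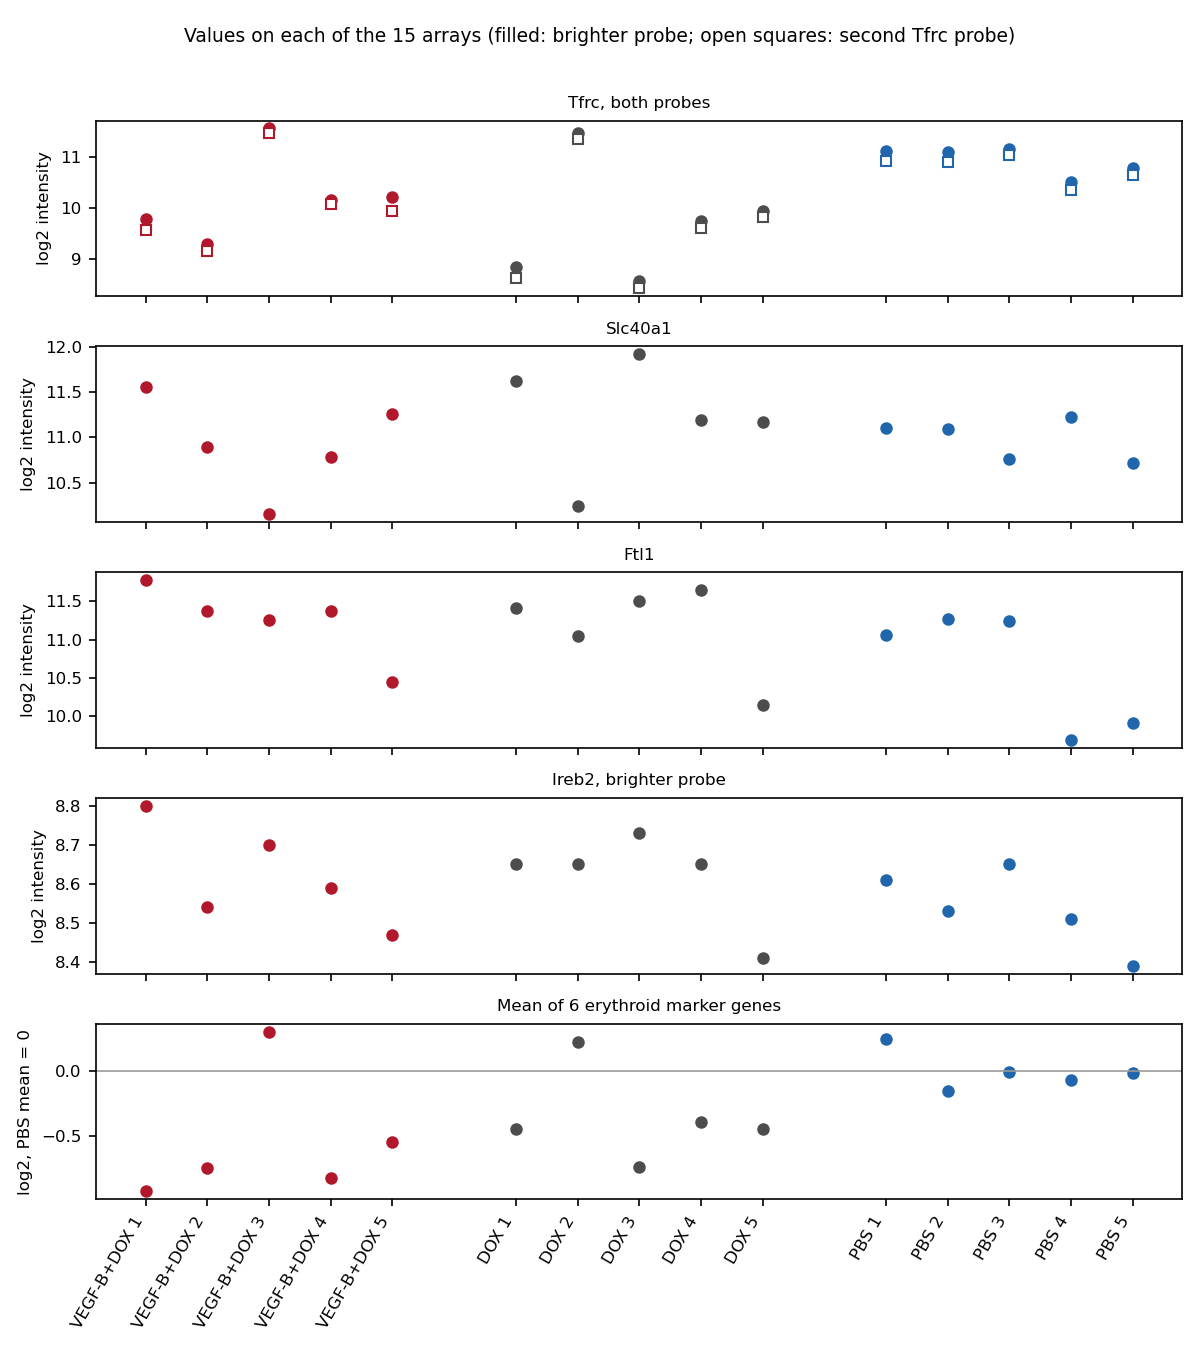
Log2 intensity of Tfrc (filled circles and open squares for its 2 probes), Slc40a1, Ftl1 and the brighter Ireb2 probe on each of the 15 arrays, with the mean of 6 erythroid marker genes relative to the PBS mean in the lowest panel. VEGF-B+DOX 3 and DOX 2 carry the highest Tfrc, the lowest Slc40a1 and the highest erythroid mean of their groups, while VEGF-B+DOX 5, DOX 5, PBS 4 and PBS 5 carry the lowest Ftl1 and Ireb2 signals of all arrays.

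Erythroid marker genes followed the same split of arrays as Tfrc. The mean of the 6 tested markers of 10 listed, relative to the PBS mean, was -0.92, -0.74, 0.30, -0.82 and -0.54 in VEGF-B+DOX hearts 1 to 5 and -0.44, 0.22, -0.73, -0.39 and -0.44 in DOX hearts 1 to 5, against -0.15 to 0.24 in PBS hearts. VEGF-B+DOX 3 and DOX 2 were again the only drug-treated arrays at the PBS level. Globin genes fell in VEGF-B+DOX against PBS, with 3 of 6 markers called, beside 4.71% of all tested probes called lower: Hba-a1 by 0.87 ± 0.24 (limma, adjusted p = 0.0227), Hbb-bs by 0.81 ± 0.24 (adjusted p = 0.0325) and Hbb-bt by 0.77 ± 0.23 (adjusted p = 0.0354). The Hbb genes are near-identical copies whose probes may read each other. Of 25 other settings, 6 ended the Hba-a1 call, 9 the Hbb-bs call and 13 the Hbb-bt call, leave-outs of single VEGF-B+DOX or PBS arrays among them. In DOX against PBS 0 of 6 were called, with a median of -0.49. Of the 6, 2 had an unadjusted limma p under 0.05, beside 10.3% of all tested probes. In VEGF-B+DOX against DOX 0 of 6 were called and 0 had such a p, beside 21.8%, with a median of -0.30. Reticulocytes carry much Tfrc as well as globin messenger, and the part of blood in the Tfrc values was not tested.

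Likeness was measured as Pearson r over 15 arrays against 12749 other genes, on the values and after subtracting group means. On the values, the brighter Tfrc probe was most like Wfdc1 (0.92), Hr (0.91) and Alas1 (0.91). After subtracting group means, Wfdc1 (0.93) stayed first, with Msi2 (0.93) and Pycrl (0.93) in place of Hr and Alas1. Likenesses given below are on the values unless stated. Alas1, the first and rate-limiting enzyme of heme synthesis outside red cells, read 13.08, 12.96, 13.41, 13.22 and 13.27 in VEGF-B+DOX hearts and 12.77, 13.35, 12.48, 13.05 and 13.14 in DOX hearts, against 13.20 to 13.38 in PBS hearts. Its highest value in each drug-treated group was again on VEGF-B+DOX 3 and DOX 2. The fold of Alas1 was -0.35 ± 0.12 in DOX against PBS (limma, adjusted p = 0.285) and 0.23 ± 0.12 in VEGF-B+DOX against DOX (adjusted p = 0.291). These likenesses are descriptions over arrays that share the same normalization.

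Slc40a1, which encodes ferroportin, the only known cellular iron exporter, read 11.56, 10.89, 10.15, 10.78 and 11.26 in VEGF-B+DOX hearts 1 to 5. It read 11.62, 10.24, 11.92, 11.19 and 11.17 in DOX hearts 1 to 5. It read 11.10, 11.09, 10.76, 11.23 and 10.72 in PBS hearts 1 to 5. Its lowest arrays in the drug-treated groups, VEGF-B+DOX 3 and DOX 2, were the ones with the highest Tfrc. All 3 groups overlapped, and the differences were 0.25 ± 0.26 in DOX against PBS (limma, adjusted p = 0.815), -0.30 ± 0.26 in VEGF-B+DOX against DOX (adjusted p = 0.562) and -0.05 ± 0.26 in VEGF-B+DOX against PBS (adjusted p = 0.94). Without DOX 2, Slc40a1 gave 0.49 ± 0.22 in DOX against PBS (limma, adjusted p = 0.341) and -0.55 in VEGF-B+DOX against DOX (adjusted p = 0.134), both still short of the threshold. Its residual SD of 0.50 ranked 134 of 24861. Fas, a death receptor and p53 target, was most like it (r = 0.90), followed by Tceanc2 (0.88) and Art5 (0.87). A second Slc40a1 probe, ILMN_1238359, lay above background on 0 arrays and was not tested.

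Slc11a2, the transporter DMT1, was measured by 3 tested probes, and none showed a called difference. The brightest, ILMN_1243129, read 8.56, 8.76, 9.20, 8.70 and 9.02 in VEGF-B+DOX hearts 1 to 5. It read 8.70, 9.24, 8.93, 9.08 and 8.92 in DOX hearts, and 9.09, 8.86, 9.04, 9.12 and 9.12 in PBS hearts. VEGF-B+DOX 3 and DOX 2 carried its highest values of all 15 arrays, as for Tfrc, and the groups overlapped. Its differences were -0.07 ± 0.12 in DOX against PBS (limma, adjusted p = 0.896), -0.13 ± 0.12 in VEGF-B+DOX against DOX (adjusted p = 0.592) and -0.20 ± 0.12 in VEGF-B+DOX against PBS (adjusted p = 0.329). The gene most like this Slc11a2 probe was Hba-a1, an alpha globin (r = 0.85), then Tomm22 (0.84) and Syngr1 (0.83). The second probe, ILMN_2665063, gave the lowest adjusted p of all members in VEGF-B+DOX against DOX, at -0.14 ± 0.08 (adjusted p = 0.366), with 3 of 5 VEGF-B+DOX arrays below every DOX array. It did not repeat the high values of VEGF-B+DOX 3 and DOX 2, which read 8.20 and 8.26. The third, ILMN_2578829, was dim, above background on 7 of 15 arrays, and its folds lay between -0.03 and 0.02.

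The ferritin chains differed in how they behaved on the arrays. Fth1, the heavy chain with the ferroxidase centre, was close to the top of the scale on all arrays. Its brighter probe, ILMN_2876066, read 14.75, 14.75, 14.85, 14.75 and 14.85 in VEGF-B+DOX hearts, 14.69, 14.75, 14.81, 14.73 and 14.81 in DOX hearts, and 14.63, 14.73, 14.76, 14.81 and 14.70 in PBS hearts. The groups overlapped and the differences were 0.03 ± 0.05 in DOX against PBS (limma, adjusted p = 0.884), 0.03 ± 0.05 in VEGF-B+DOX against DOX (adjusted p = 0.766) and 0.06 ± 0.05 in VEGF-B+DOX against PBS (adjusted p = 0.463). The second probe, ILMN_2876071, gave 0.04, -0.01 and 0.02 in the same comparisons, each with a standard error of 0.08. The highest value anywhere on the arrays was 14.93, so the scale left little room above Fth1.

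Ftl1, the light chain that aids iron core formation, split by array and not by group. Its tested probe, ILMN_1229517, read 11.78, 11.37, 11.26, 11.38 and 10.45 in VEGF-B+DOX hearts 1 to 5. It read 11.41, 11.05, 11.51, 11.65 and 10.15 in DOX hearts 1 to 5. It read 11.06, 11.27, 11.25, 9.69 and 9.91 in PBS hearts 1 to 5. The 4 arrays set apart on the second component held its 4 lowest values, 9.69 to 10.45, and the other 11 arrays lay between 11.05 and 11.78. Over all 15 arrays the differences were 0.52 ± 0.33 in DOX against PBS (limma, adjusted p = 0.633), 0.09 ± 0.33 in VEGF-B+DOX against DOX (adjusted p = 0.916) and 0.61 ± 0.33 in VEGF-B+DOX against PBS (adjusted p = 0.274). Within the other 11 arrays they shrank to 0.21 ± 0.14 (limma, adjusted p = 0.605), 0.04 and 0.25 ± 0.14 (adjusted p = 0.288). The genes most like Ftl1 were Adam9 (r = 0.96), Tug1 (0.95) and Rb1 (0.95), none of them a gene of iron handling. What separated the 4 arrays, the last that the series lists, was not tested. PBS 4 and PBS 5 are both among them, with only DOX 5 and VEGF-B+DOX 5 from the drug-treated groups. A second Ftl1 probe, ILMN_2816707, lay above background on 1 array and was not tested.

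Ireb2, which encodes IRP2, the iron regulatory protein that is destroyed when iron is plentiful, read 8.80, 8.54, 8.70, 8.59 and 8.47 with its brighter probe, ILMN_1225719, in VEGF-B+DOX hearts. It read 8.65, 8.65, 8.73, 8.65 and 8.41 in DOX hearts, and 8.61, 8.53, 8.65, 8.51 and 8.39 in PBS hearts. The same 4 arrays held its 4 lowest values, 8.39 to 8.51, against 8.53 to 8.80 on the other 11. Its differences were 0.08 ± 0.08 in DOX against PBS (limma, adjusted p = 0.807), 0.00 ± 0.08 in VEGF-B+DOX against DOX (adjusted p = 0.992) and 0.08 ± 0.08 in VEGF-B+DOX against PBS (adjusted p = 0.615). The second probe, ILMN_3161612, did not split in this way, with 7.23 to 7.44 on the 4 arrays and 7.06 to 7.37 on the others, and its folds were 0.02, 0.05 and 0.08. The brighter probe was most like Dnaaf2 (r = 0.93), U2af2 (0.91) and Washc5 (0.88). IRP2 is controlled through the stability of its protein, which these arrays do not measure.

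**Figure D3:**
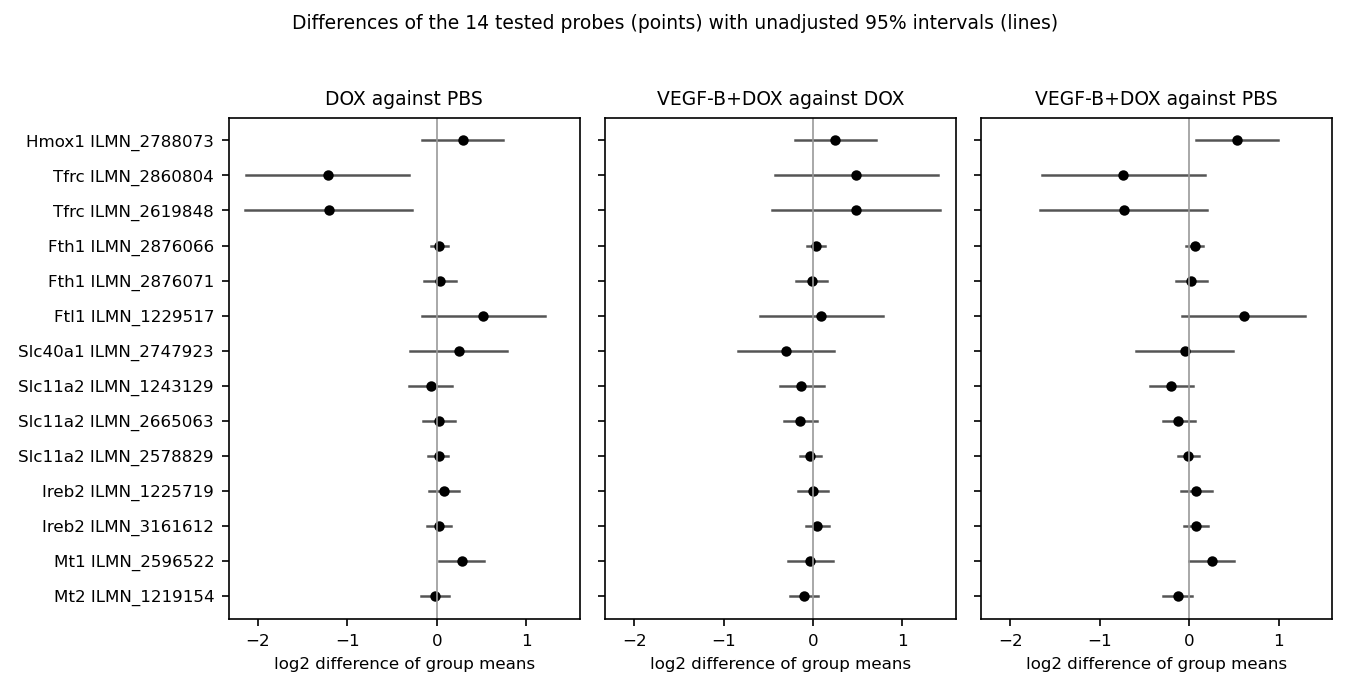
Log2 difference of group means for each of the 14 tested probes (points) with the unadjusted 95% interval (lines), in the comparisons DOX against PBS, VEGF-B+DOX against DOX and VEGF-B+DOX against PBS. The intervals of Tfrc and Ftl1 are the widest, and the intervals that do not reach 0 are those of both Tfrc probes and Mt1 in DOX against PBS and of Hmox1 in VEGF-B+DOX against PBS, none of which passed after adjustment.

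Hmox1 was the member with the clearest separation of groups, in VEGF-B+DOX against PBS. Its single probe, ILMN_2788073, read 9.13, 7.85, 7.72, 7.79 and 8.13 in VEGF-B+DOX hearts 1 to 5. It read 7.76, 7.57, 8.53, 7.86 and 7.65 in DOX hearts 1 to 5. It read 7.65, 7.69, 7.38, 7.57 and 7.65 in PBS hearts 1 to 5. All 5 VEGF-B+DOX arrays lay above all 5 PBS arrays, while the DOX arrays overlapped both. The difference was 0.54 ± 0.22, 1.45 times, with an interval of 0.08 to 0.99 (limma, unadjusted p = 0.0228, adjusted p = 0.126). Much of it came from 1 array, VEGF-B+DOX 1, without which Hmox1 gave 0.28 ± 0.15 (limma, adjusted p = 0.301). VEGF-B+DOX against DOX gave 0.25 ± 0.22 (adjusted p = 0.561), and 0.00 without VEGF-B+DOX 1 (adjusted p = 0.998). DOX against PBS gave 0.29 ± 0.22 (adjusted p = 0.713), and 0.12 without DOX 3 (adjusted p = 0.949). With the background level subtracted before the log, the Hmox1 fold in VEGF-B+DOX against PBS was 0.98 and the adjusted p 0.0965.

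Macrophages clear senescent red cells and are a main site of Hmox1, so their markers were set beside it. The genes most like Hmox1 over the 15 arrays were Lgmn (r = 0.87), Ms4a6d (0.87) and F13a1 (0.83), of which Lgmn is among the listed macrophage markers. After subtracting group means they were Ms4a6d (0.90), Serpina3n (0.86) and Slc2a4rg-ps (0.84). The marker list is short, and genes outside it, Ms4a6d and F13a1 included, may still be expressed in macrophages. The mean of the 13 tested macrophage markers of 14 listed, relative to the PBS mean, was 0.51, 0.26, 0.15, 0.15 and 0.42 in VEGF-B+DOX hearts 1 to 5 and 0.21, 0.18, 0.14, 0.08 and 0.07 in DOX hearts 1 to 5, against -0.17 to 0.22 in PBS hearts. VEGF-B+DOX 1, with the highest Hmox1, had the highest macrophage mean too. DOX 3, with the second highest Hmox1 (8.53), had a mean of 0.14, below those of DOX 1, DOX 2 and PBS 1, and DOX 2, with the lowest Hmox1 of the DOX arrays (7.57), had 0.18. In VEGF-B+DOX against PBS, 4 of 13 rose, beside 6.72% of all tested probes called higher: C1qb by 0.71 ± 0.13 (limma, adjusted p = 0.00145), C1qc by 0.55 ± 0.13 (adjusted p = 0.00712), Fcgr1 by 0.25 ± 0.07 (adjusted p = 0.0246) and Mertk by 0.34 ± 0.10 (adjusted p = 0.0251), the last named after its value was seen. The C1qb call held in all 25 other settings, and 1, 5 and 7 of them ended the calls of C1qc, Fcgr1 and Mertk. In DOX against PBS and in VEGF-B+DOX against DOX 0 of 13 passed. Of the 13, 4 and 5 had an unadjusted limma p under 0.05 there, beside 10.3% and 21.8% of all tested probes. Other markers rose on the same arrays, 10 of 11 endothelial and 8 of 8 dividing-cell markers in VEGF-B+DOX against PBS. Cd68 had no probe with its symbol. The part of macrophages in the Hmox1 values was not tested.

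Mt1 and Mt2 lie next to each other on chromosome 8, and both are textbook targets of the zinc sensor MTF1, which binds metal response elements. The 250 bases before their RefSeq gene starts (GRCm38.p6, plus strand, 5′ to 3′) are shown because that element is the best known route by which both genes respond; capitals mark each match to its core, TGCACNC or TGCGCNC on either strand.
Mt1, chr8:94178839-94179088: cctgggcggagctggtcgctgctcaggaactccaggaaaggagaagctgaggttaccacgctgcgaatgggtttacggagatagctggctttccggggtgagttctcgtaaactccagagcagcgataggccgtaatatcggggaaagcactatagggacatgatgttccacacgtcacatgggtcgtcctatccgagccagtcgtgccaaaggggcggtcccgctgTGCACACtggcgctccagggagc
Mt2, chr8:94172368-94172617: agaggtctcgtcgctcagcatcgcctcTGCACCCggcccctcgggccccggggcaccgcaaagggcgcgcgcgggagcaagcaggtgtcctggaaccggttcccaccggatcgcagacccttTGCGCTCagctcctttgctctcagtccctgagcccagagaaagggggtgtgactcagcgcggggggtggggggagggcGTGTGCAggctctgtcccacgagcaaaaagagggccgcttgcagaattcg
Mt2 held 3 matches in this window and Mt1 held 1, between 23 and 17 bases before the start. At least 1 match occurs in 21.4% of 32851 promoter windows of the same length and at least 3 in 1.26%, so a single match is common. The antioxidant response element, TGACNNNGC on either strand, matched once in Mt2 and in 10.2% of all windows. These are matches of letters in windows that end at the annotated start, and say nothing of binding or of elements outside them. The annotated start of Mt1 may lie upstream of the start used in most transcripts, in which case its known elements would lie outside this window, so the numbers of matches in Mt1 and Mt2 are not comparable. Of the 9 genes, 6 had an entry in the promoter table.

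Mt1 was close to the top of the scale, like Fth1. Its probe, ILMN_2596522, read 14.58, 14.60, 13.94, 14.26 and 14.59 in VEGF-B+DOX hearts 1 to 5. It read 14.59, 14.55, 14.46, 14.35 and 14.16 in DOX hearts 1 to 5. It read 14.37, 14.19, 13.87, 14.15 and 14.14 in PBS hearts 1 to 5. All 5 DOX arrays lay above the PBS mean of 14.14 and 3 of them above every PBS array; VEGF-B+DOX 3 lay near the lowest PBS array. The difference was 0.28 ± 0.12 in DOX against PBS, with an interval of 0.03 to 0.53 (limma, unadjusted p = 0.0317, adjusted p = 0.416). It was 0.25 ± 0.12 in VEGF-B+DOX against PBS (limma, adjusted p = 0.21) and -0.03 ± 0.12 in VEGF-B+DOX against DOX (adjusted p = 0.933). Without VEGF-B+DOX 3, Mt1 passed in VEGF-B+DOX against PBS at 0.36 ± 0.10 (limma, adjusted p = 0.0266), again with the array chosen by its values. Most like Mt1 were Bscl2 (r = 0.95), Gcnt2 (0.87) and Psmd4 (0.86).

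Mt2, measured by 1 dim probe, ILMN_1219154, did not follow Mt1. It read 7.17, 7.38, 7.14, 7.36 and 7.40 in VEGF-B+DOX hearts, 7.41, 7.33, 7.56, 7.28 and 7.39 in DOX hearts, and 7.37, 7.59, 7.24, 7.50 and 7.38 in PBS hearts. The groups overlapped. The differences were -0.02 ± 0.08 in DOX against PBS (limma, adjusted p = 0.961), -0.10 ± 0.08 in VEGF-B+DOX against DOX (adjusted p = 0.475) and -0.13 ± 0.08 in VEGF-B+DOX against PBS (adjusted p = 0.346). With the background level subtracted before the log, the last 2 were -0.36 (limma, adjusted p = 0.458) and -0.41 (adjusted p = 0.357), neither called. How well this probe reads the Mt2 messenger was not tested, and its target sequence was not analysed here. The genes most like it were Cks1brt (r = 0.88), Thumpd1 (0.87) and Zkscan6 (0.82).

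Genes that act with these members were examined as lists drawn up with earlier results of the data known, by counts and medians only. In DOX against PBS, 0 genes of the 7 lists on iron, heme, iron-sulfur clusters, zinc and copper, ferroptosis and NRF2 passed the limma test. The unadjusted limma p was under 0.05 for 2 of 16 genes of iron transport, 0 of 7 of iron sensing and storage and 1 of 17 of heme. It was under 0.05 for 3 of 13 genes of iron-sulfur clusters, 1 of 16 of zinc and copper, 0 of 8 of ferroptosis and 9 of 15 NRF2 targets. Of all tested probes, 10.3% had such a p. The calls described next came from the comparisons that include the vector, in which 6.42% of all tested probes were called higher and 3.17% lower against DOX, and 6.72% higher and 4.71% lower against PBS; 1 call in a list of 16 or 17 is near those shares and says nothing of the list. Of 16 tested genes of iron transport, 1 rose in VEGF-B+DOX against DOX, Heph, a copper-dependent ferroxidase that works beside ferroportin, by 0.26 ± 0.06 (limma, adjusted p = 0.0123). Against PBS, Heph rose by 0.24 in VEGF-B+DOX hearts (adjusted p = 0.0167) and Flvcr2, a carrier of the same family as the heme exporter Flvcr1, fell by 0.43 ± 0.09 (adjusted p = 0.00435). Flvcr2 gave -0.33 in DOX against PBS (limma, unadjusted p = 0.00191, adjusted p = 0.141) and -0.10 in VEGF-B+DOX against DOX (adjusted p = 0.598), neither called. The medians of the 16 were -0.02, -0.05 and -0.01 in DOX against PBS, VEGF-B+DOX against DOX and VEGF-B+DOX against PBS. Of 7 tested genes of iron sensing and storage, Pcbp3, of the family of RNA-binding proteins whose members Pcbp1 and Pcbp2 deliver iron to ferritin, rose by 0.31 ± 0.06 in VEGF-B+DOX against DOX (limma, adjusted p = 0.00331) and by 0.31 in VEGF-B+DOX against PBS (adjusted p = 0.00268), while the other 6 did not pass.

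Of 17 tested genes of heme synthesis and breakdown, 1 fell in each comparison that includes the vector, near the 3.17% and 4.71% of all tested probes called lower. Uros, which closes the ring of the heme precursor, fell by 0.41 ± 0.10 in VEGF-B+DOX against DOX (limma, adjusted p = 0.016) and by 0.41 in VEGF-B+DOX against PBS (adjusted p = 0.014). Leaving out DOX 4, or DOX 2 and VEGF-B+DOX 3 together, ended the first call, with adjusted p up to 0.0533. Alas2, the erythroid counterpart of Alas1, gave -0.83 ± 0.29 in VEGF-B+DOX against PBS (limma, adjusted p = 0.0767), and Hmox2, the constitutive heme oxygenase, gave 0.01 in that comparison; both were chosen after their values were seen.

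Iron-sulfur cluster assembly had the most calls of the lists on iron. Of its 13 tested genes, 2 fell and 0 rose in VEGF-B+DOX against DOX, beside 3.17% of all tested probes that were called lower. Nfs1, the cysteine desulfurase that supplies the sulfur, fell by 0.38 ± 0.09 (limma, adjusted p = 0.0105), and Iba57, needed for mitochondrial proteins with 4 iron atoms per cluster, fell by 0.35 ± 0.10 (adjusted p = 0.0365). Against PBS, 4 fell and 0 rose in VEGF-B+DOX hearts, beside 4.71% of all tested probes: Iba57 by 0.55 (limma, adjusted p = 0.00154), the mitochondrial transporter Abcb8 by 0.48 (adjusted p = 0.00335), Nfs1 by 0.35 (adjusted p = 0.0163) and Isca1, named after its value was seen, by 0.27 (adjusted p = 0.0182). The mean of the 13 relative to PBS was -0.17 to -0.12 on the 5 VEGF-B+DOX arrays and -0.07 to 0.10 on the DOX arrays, against -0.08 to 0.06 on the PBS arrays. The list median was 0.05 in DOX against PBS, -0.14 in VEGF-B+DOX against DOX and -0.11 in VEGF-B+DOX against PBS. The Iba57 call against DOX was lost in 9 of 25 other settings (adjusted p up to 0.111), the leave-outs of VEGF-B+DOX 3, 4 or 5 and of DOX 1, 2 or 4 among them, and the Isca1 call was lost within the 11 arrays (adjusted p = 0.106). Endothelial markers rose on the same arrays, with 9 of 11 called in VEGF-B+DOX against DOX and 10 of 11 in VEGF-B+DOX against PBS. Dividing-cell markers rose too, 8 of 8 in both comparisons with medians of 1.03 and 0.98, as did 4 of 8 smooth muscle and pericyte markers in VEGF-B+DOX against DOX (2 rose and 1 fell in VEGF-B+DOX against PBS). In contrast, 0 of 9 cardiomyocyte markers passed in either comparison (0 at an unadjusted p under 0.05 too); the part of cell makeup in the list was not tested.

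**Figure D4:**
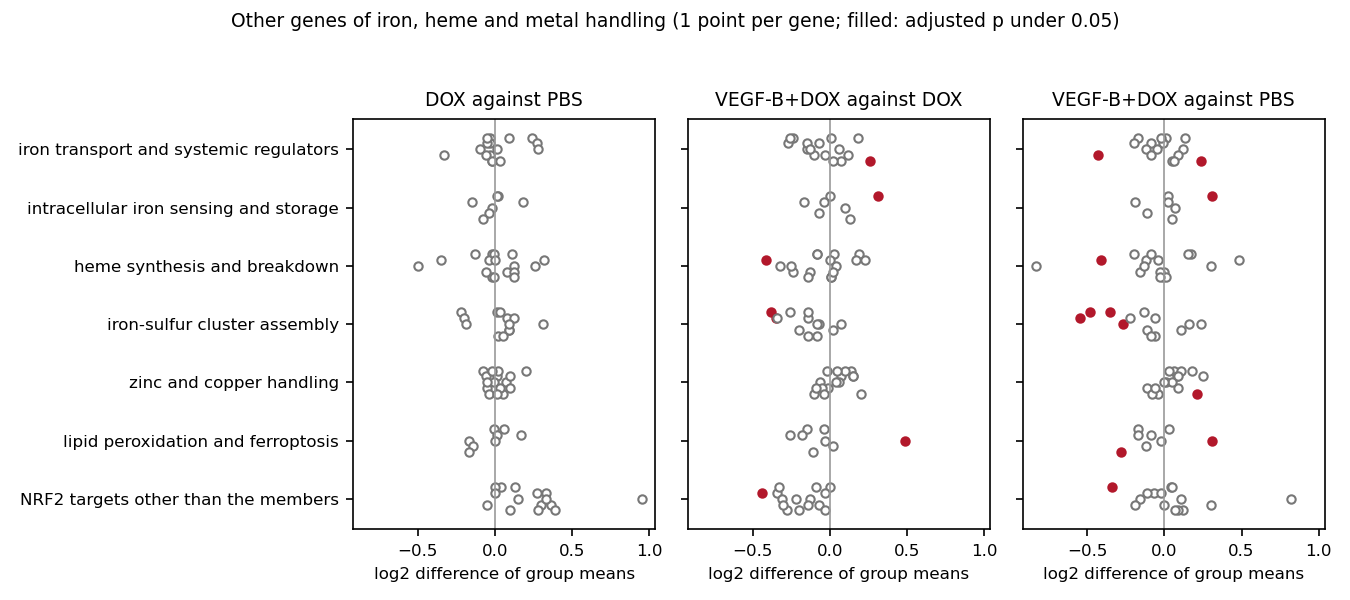
Log2 difference of group means for the tested genes of 7 lists (1 point per gene, brightest probe), in the comparisons DOX against PBS, VEGF-B+DOX against DOX and VEGF-B+DOX against PBS; filled points passed an adjusted p of 0.05. No point is filled in DOX against PBS, and the 4 filled points of iron-sulfur cluster assembly in VEGF-B+DOX against PBS all lie below 0.

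The lists closest to the other members held few calls. Of 16 tested genes of zinc and copper handling, Slc39a10, a zinc importer, rose by 0.21 in VEGF-B+DOX against PBS (limma, adjusted p = 0.0428), a call lost in 15 of 25 other settings (adjusted p up to 0.165). Of 8 tested genes of lipid peroxidation and ferroptosis, Alox12, an arachidonate lipoxygenase, rose by 0.49 ± 0.10 in VEGF-B+DOX against DOX (adjusted p = 0.00289) and by 0.31 in VEGF-B+DOX against PBS (adjusted p = 0.0436), the second call being lost in 12 of 25 other settings (adjusted p up to 0.116). Dhodh, a mitochondrial enzyme of pyrimidine synthesis, fell by 0.28 in VEGF-B+DOX against PBS (adjusted p = 0.0395), lost in 9 of 25 (adjusted p up to 0.116). Leave-outs of several single arrays, from all 3 groups, were among the settings that ended these calls.

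Targets of NRF2, the factor that induces Hmox1 under oxidative stress, were compared because Hmox1 belongs to that program. Of 15 tested targets other than the members, 0 passed in DOX against PBS, 9 had an unadjusted limma p under 0.05 beside 10.3% of all tested probes, and the median was 0.27. Their mean relative to PBS was -0.13 to 0.12 on the VEGF-B+DOX arrays and 0.02 to 0.41 on the DOX arrays, against -0.03 to 0.04 on the PBS arrays, with the lowest DOX value on DOX 2 and the lowest VEGF-B+DOX value on VEGF-B+DOX 3. 1 gene fell in VEGF-B+DOX against DOX, the glutathione transferase Gstm1, by 0.44 ± 0.11 (limma, adjusted p = 0.0106), with a list median of -0.20. Gsta4, another glutathione transferase, fell by 0.34 in VEGF-B+DOX against PBS (adjusted p = 0.043), a call lost in 10 of 25 other settings (adjusted p up to 0.122), single arrays of each group left out among them.

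Mt1 is also induced by glucocorticoids and by interleukin-6, so those lists stand beside it. Of 14 tested glucocorticoid-induced genes, 0 passed in DOX against PBS, with 6 at an unadjusted limma p under 0.05 beside 10.3% of all tested probes. Of the 14, 1 rose in VEGF-B+DOX against DOX, near the 6.42% of all tested probes called higher, and 3 rose in VEGF-B+DOX against PBS, beside 6.72%. Sgk1, a kinase that regulates ion transport, rose by 0.75 ± 0.12 in the first of these (limma, adjusted p = 0.000274) and by 0.89 ± 0.12 in the second (adjusted p = 5.6e-05), where Nfkbia rose by 0.38 (adjusted p = 0.0121) and Sult1a1 by 0.67 (adjusted p = 0.0468). Of 25 other settings, 13 ended the Sult1a1 call (adjusted p up to 0.13) and 1, the fit within the 11 arrays, the Nfkbia call. The list mean was -0.06 on VEGF-B+DOX 3 and 0.32 to 0.50 on the other VEGF-B+DOX arrays, and it was -0.02 on DOX 2 with the other DOX arrays at 0.07 to 0.48, against -0.09 to 0.12 on the PBS arrays. Mt1 read its lowest VEGF-B+DOX value on VEGF-B+DOX 3 too, but not its lowest DOX value on DOX 2. Of 13 tested acute-phase genes, Serpina3n, a secreted protease inhibitor, rose by 0.80 ± 0.16 in DOX against PBS (limma, adjusted p = 0.0419), a call lost in 11 of 25 other settings (adjusted p up to 0.22), and fell by 0.60 ± 0.16 in VEGF-B+DOX against DOX (adjusted p = 0.0234), lost in 7 (adjusted p up to 0.0695). Against PBS, in VEGF-B+DOX hearts, Lrg1 fell by 0.88 ± 0.15 (limma, adjusted p = 0.000669) and Osmr rose by 0.51 ± 0.14 (adjusted p = 0.0204), a call lost without VEGF-B+DOX 1, without VEGF-B+DOX 5 and within the 11 arrays (adjusted p up to 0.0942). These were single calls in each direction among 13 genes. Of all tested probes, 0.322% were called in DOX against PBS and 3.17% were called lower in VEGF-B+DOX against DOX. In VEGF-B+DOX against PBS the shares were 6.72% higher and 4.71% lower.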

How the data were processed

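The authors' deposited table holds log2 values of 15 Illumina BeadChip arrays. That they are log2 was read from their range, and that they were quantile-normalized from sorted values that differed by at most 0.01 between arrays; the authors' software and background treatment are not given in the sources used here. Per the labels' protocols, biotinylated cRNA was made from total RNA. A second table, of raw signals, was left out: its 15 signal and 15 detection columns carry names that fit no sample's labels. Probe symbols came from the platform annotation: 34885 probes carry 1 symbol, 18 several and 10378 none.

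Background was taken as the mode of all values, 6.80, with an SD of 0.0693 by reflection and a 95% limit of 6.91. A mean per group was fitted to all arrays together (limma 3.58.1, R 4.3.3; variance trend, 12 residual df), and Benjamini-Hochberg adjustment ran over 24861 probes in each comparison. The fit was tested on simulated data. Figures used Python 3.11.15 and matplotlib 3.10.9.

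The members and all lists were chosen with earlier results of these data known. Every member probe was reported. From each list the tested genes were counted by brightest probe and up to 3 past the threshold with the smallest p were named. The 3 most similar genes were named per member on the values, and for Tfrc and Hmox1 after subtracting group means too. Titles share numbers 1 to 5 across groups. Deviations of same-numbered arrays correlated at -0.41 to 0.63, over 0.1 in 7 of 15 pairs. VEGF-B+DOX 5, DOX 5 and PBS 5 all lie in the set apart on the second component. The correlations therefore mix that set with any pairing and do not settle it. The numbers were not taken as pairs, and a replicate block was run as an alternative. Promoter windows came from RefSeq (GRCm38.p6); a comparison of ferritin and metallothionein proteins had been planned and was not made. Alternatives covered the dim-probe filter, variance prior, array weights, replicate block, left-out arrays, background subtraction and probe averaging.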

Additional observations from a re-analysis of the deposited data

Results flagged for a closer look

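The brighter Ireb2 probe read 8.41 on DOX 5, apart from the other 4 DOX arrays at 8.65 to 8.73. The gap was 0.75 of the range of the group, above Dixon's critical value of 0.71. It was 1 of 48 sets of 5 arrays examined, and chance flags about 1 in 20. DOX 5 is 1 of the 4 arrays set apart on the second principal component, which held the lowest values of this probe in all groups.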

How the results depend on the processing

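The counts of member probes past the threshold kept to 0 under all settings run except those that leave out DOX 2 or VEGF-B+DOX 3. In DOX against PBS the count ran from 0 to 2 with 1 array left out, 2 without DOX 2, and was 2 without DOX 2 and VEGF-B+DOX 3 together, in each case the Tfrc probes. In VEGF-B+DOX against PBS it ran from 0 to 1 with 1 array left out, 1 without VEGF-B+DOX 3 (Mt1), and was 3 without both arrays (Tfrc by both probes, and Mt1). In VEGF-B+DOX against DOX it was 0 throughout. With a replicate block the count stayed at 0 in all 3 comparisons and no call of a member changed; of the named list genes, the calls of Slc39a10, Hbb-bs and Hbb-bt in VEGF-B+DOX against PBS were lost. Under the block, Ftl1 in VEGF-B+DOX against PBS gave 0.61 ± 0.22 (limma, adjusted p = 0.0876), and 5 of 15 arrays matched best an array of their own number. In DOX against PBS the block gave 0.52 ± 0.22 for Ftl1 (limma, unadjusted p = 0.0332, adjusted p = 0.37). For Mt1 it gave 0.28 ± 0.09 there (limma, unadjusted p = 0.0095, adjusted p = 0.237). Over the 42 member folds, 26 settings gave 1074 values, of which 8 passed the threshold and 44 changed sign, none larger in size than 0.16. The count over all probes in DOX against PBS, 80, was fragile: it ran from 2 (without DOX 1) to 487 (without DOX 2) with 1 array left out, and was 53 with no variance trend, 201 with array weights, 677 without DOX 2 and VEGF-B+DOX 3, and 1 within the 11 arrays. In VEGF-B+DOX against DOX it was 2383, and 3601 with array weights. Hmox1, Mt2, the dim Slc11a2 probe and the second Ireb2 probe lie near background, where folds are understated if background was not subtracted. With it subtracted, the second Ireb2 probe gave 0.23 in VEGF-B+DOX against PBS. Among the named list genes, Heph (mean 7.35) and Pcbp3 (7.21) lie there too. Their folds in VEGF-B+DOX against DOX ran from 0.21 to 0.77 and from 0.27 to 1.19 under other settings. Fth1 and Mt1 lie near the top of the scale. The standard error was 0.44 for the brighter Tfrc probe, 0.25 without DOX 2 and VEGF-B+DOX 3, and 0.05 for the brighter Fth1 probe.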
